A study of Mus musculus with 20 samples.

Results

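Peaks of N6-methyladenosine (m6A) that span the stop codon of messenger RNA were examined in the hearts of 5 db/db and 5 db/+ mice. A peak was a member when the annotation in the authors' peak lists placed it in both the coding part and the 3′ untranslated part of a transcript, and not in the 5′ untranslated part. Of 141836 distinct peaks in the 10 lists, 24093 were members. Coding-only peaks numbered 60862, 3′ untranslated-only peaks 51670, and peaks touching the 5′ untranslated part 5211. The membership rests on the annotation alone and used neither the enrichment of a peak nor the genotype of a heart.

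All animals carried the label C57BL/6. The db allele disrupts the leptin receptor. Homozygous db/db mice become obese and diabetic, and heterozygous db/+ mice are their usual lean controls, which carry 1 copy of the same allele. Each of the 10 hearts was sequenced as input RNA and after immunoprecipitation with a rabbit anti-m6A antibody, 20 libraries in all. The stated purpose was to map m6A over the transcripts of hearts with diabetic cardiomyopathy and of healthy hearts. The age and sex of the mice were not used here. Hearts of a genotype are called 1 to 5 by the number in their titles.

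The m6A mark is the most common internal modification of messenger RNA. A writer complex built around Mettl3, Mettl14 and Wtap deposits it, the demethylases Fto and Alkbh5 can remove it, and proteins such as those of the YTH family bind it and bear on splicing, export, translation and decay. Its density along messenger RNA is known to be highest around the stop codon and in long internal exons. In immunoprecipitation with fragmented RNA, a peak is a stretch of exon sequence in which fragments are enriched over input, and it does not resolve the single modified base.

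Stop-codon-spanning peaks were found in every heart, at 14.7% to 18.7% of the peaks of a list. The db/+ hearts 1 to 5 held 2234, 2151, 2578, 2662 and 2936 of them. The db/db hearts 1 to 5 held 2834, 2525, 2367, 2534 and 1272. The genotypes overlapped, with the highest count in db/+ 5 and the lowest in db/db 5. The mean was 2512 ± 322 (SD, n = 5) in db/+ and 2306 ± 602 (SD, n = 5) in db/db, a difference of -205.8 peaks (exact two-sided permutation test, p = 0.603, smallest possible p 0.00794).

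A pair of lists stood apart in total length. The list of db/+ 5 held 20021 distinct peaks and that of db/db 5 held 8462, against 12385 to 15607 in the other 8 hearts. Heart db/db 5 also had the lowest median fold enrichment of stop-codon-spanning peaks, 2.81, where the other 9 hearts lay between 3.27 and 4.14. Without db/db 5 the difference in count turned to +52.8 peaks, and without both db/+ 5 and db/db 5 to +158.8, a setting chosen after seeing the data.

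As a share of all peaks, stop-codon-spanning peaks made up 18.0%, 16.4%, 18.0%, 18.4% and 14.7% in db/+ hearts 1 to 5. In db/db hearts 1 to 5 they made up 18.7%, 17.5%, 17.1%, 16.2% and 15.03%. The 95% Wilson interval ran from 14.2% to 15.2% in db/+ 5 and from 18.1% to 19.3% in db/db 1. These intervals cover counting error only and take peaks as independent, although 73.4% to 76.4% of stop-codon-spanning peaks overlapped another peak of their heart. The mean share was 17.1% ± 1.57 (SD, n = 5) in db/+ and 16.9% ± 1.38 (SD, n = 5) in db/db, a difference of -0.179 percentage points (exact two-sided permutation test, p = 0.841). The sign of this difference was not stable: it was +0.292 without db/db 5, +0.0574 without db/+ 1, +0.0508 without db/+ 3 and +0.143 without db/+ 4.

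**Figure D1:**
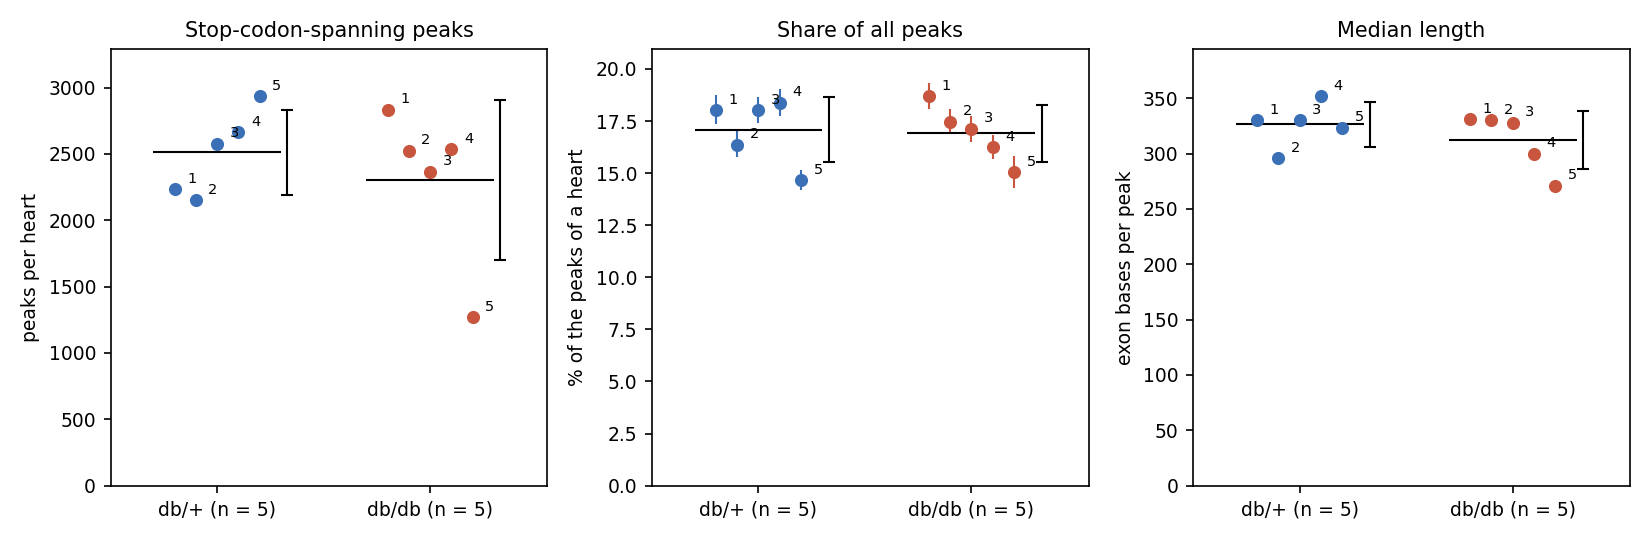
The number of stop-codon-spanning peaks, their share of all peaks with its 95% Wilson interval, and their median length are plotted for each of the 10 hearts, numbered as in the labels, with horizontal lines for the genotype means and bars for the SD. Heart db/db 5 is lowest in number (1272 peaks) and length (271 exon bases), and the genotypes overlap in all 3 panels.

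A stop-codon-spanning peak usually covered more exon sequence than peaks of other classes. Over all hearts the quartiles of length were 181, 327 and 511 exon bases, and 56.8% of peaks lay in 1 exon block, 18.9% in 2 and 24.3% in 3 or more. The shortest length, 56 bases, was shared by 3 peaks, among them one in Rpl27, a protein of the large ribosomal subunit, in db/+ 5 (chr11:101445474-101445529, plus strand). The longest, of 3468 bases in 20 exon blocks, was in Myh6, the major myosin heavy chain of the adult mouse ventricle, in db/+ 1 (chr14:54941926-54956526, minus strand). Positions are printed as deposited, counted from 1, and match GRCm38 genes: of 11485 genes compared with a GRCm38 gene table, 89.9% had a start or end within 50 bases, although the submitters' processing notes list mm9.

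Median length was 330, 296, 330, 352 and 323.5 exon bases in db/+ hearts 1 to 5 and 331, 330, 328, 300 and 271 in db/db hearts 1 to 5. Heart db/db 5 was lowest, and the other 4 db/db hearts lay inside the db/+ range. The means were 326.3 ± 20.1 (SD, n = 5) in db/+ and 312 ± 26.3 (SD, n = 5) in db/db, a difference of -14.3 bases (exact two-sided permutation test, p = 0.452).

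Coding-only peaks were shorter, with medians of 181 to 211 exon bases per heart, and 3′ untranslated-only peaks shorter again, at 150 to 179. Since a peak must reach into both parts to be a member, its length is tied to the rule and no test is given. Of stop-codon-spanning peaks, 39.0% to 50.1% per heart crossed at least 1 exon junction, against 48.7% to 57.6% of coding-only peaks and 0.257% to 0.492% of 3′ untranslated-only peaks. Their transcripts were short, with a median of 2086 to 2442 bases per heart, against 3853 to 4175 for coding-only and 3066 to 3422 for 3′ untranslated-only peaks. From the 3′ end of a stop-codon-spanning peak to the annotated end of its gene, the median was 1015 to 1253 genomic bases. For 3′ untranslated-only peaks it was 569 to 747.

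A place could be listed more than once with different positions or exon blocks, and no source used here says how the lists were called. Within a heart, 38.9% to 44.3% of the places with a stop-codon-spanning peak were listed as more than 1 such peak, and each gene had 1.79 to 1.89 of them on average. When overlapping peaks of all classes in a heart were joined into sets, 15.2% to 18.4% of stop-codon-spanning peaks shared a set with a coding-only peak and 9.68% to 13.7% with a 3′ untranslated-only peak. Counted as genes, the db/+ hearts 1 to 5 had a stop-codon-spanning peak in 1198, 1157, 1368, 1417 and 1570, and the db/db hearts 1 to 5 in 1544, 1339, 1265, 1366 and 712. The means of 1342 ± 168 and 1245 ± 315 genes (SD, n = 5 each) differed by less than the spread between hearts (difference -96.8, exact two-sided permutation test, p = 0.651), and the difference was +36.5 genes without db/db 5.

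Of the genes with a stop-codon-spanning peak, 41.4% to 49.7% per heart had no peak of another class in the same heart. A coding-only peak was also present in 29.9% to 33.3% and a 3′ untranslated-only peak in 25.5% to 40.2%, the highest value being that of db/+ 5.

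The fold enrichment of a peak is the authors' ratio of immunoprecipitated to input signal. It is tested here only as a rank within a list, and folds printed for single hearts are a description. Over all hearts the folds of stop-codon-spanning peaks had quartiles of 2.73, 3.79 and 5.44, and ran from 1.06 to 241. Within a list their median percentile was 52.3 to 57.9. That of coding-only peaks was 37.9 to 51.0, and that of 3′ untranslated-only peaks 45.2 to 58.9. Stop-codon-spanning peaks ranked above coding-only peaks by 7.50 ± 4.64 percentile points (SD over hearts), in 10 of 10 hearts (exact two-sided sign-flip test, p = 0.00195, the smallest it can give). They ranked above 3′ untranslated-only peaks by 5.94 ± 4.39 points, in 9 of 10 hearts (exact sign-flip test, p = 0.00586), the exception being db/+ 5 at -4.22.

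This ranking depended on how peaks were counted. With 1 peak per gene and class, the one of highest fold, the difference from coding-only peaks turned to -1.44 points (exact sign-flip test, p = 0.455) and that from 3′ untranslated-only peaks fell to 2.20 points (p = 0.146). In the order of the authors' p-values, stop-codon-spanning peaks stood at a median percentile of 72.1 to 76.6 per heart, against 42.2 to 47.5 for coding-only and 41.6 to 45.3 for 3′ untranslated-only peaks. These p-values move with the number of reads under a peak, and the part of length and transcript level in this order was not tested.

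**Figure D2:**
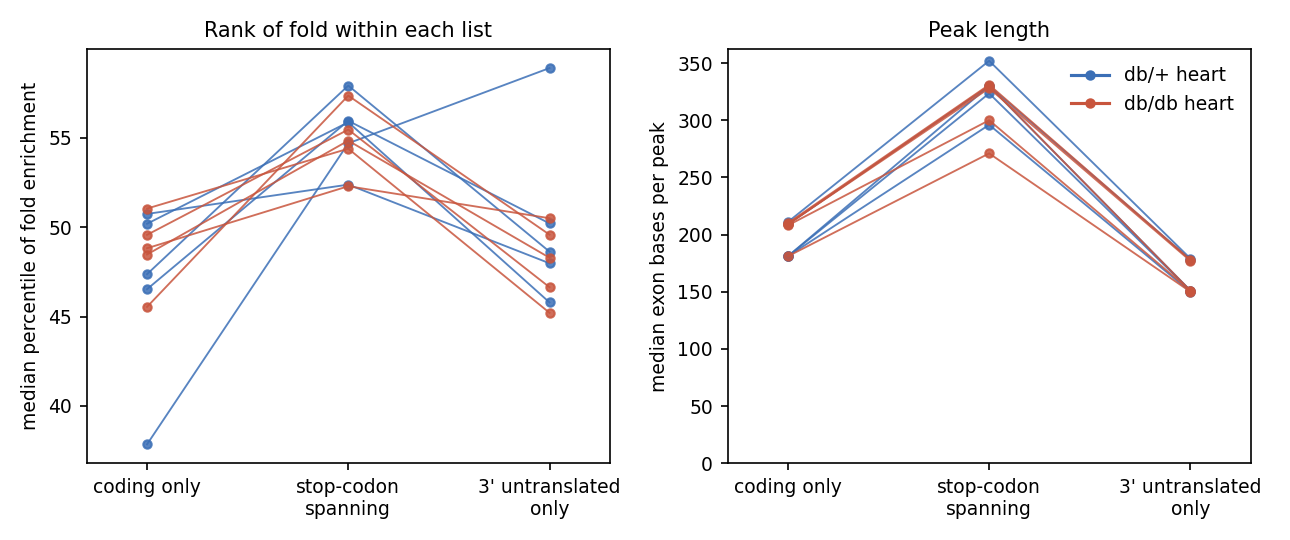
Median percentile of fold enrichment within each list (left, axis not starting at 0) and median peak length in exon bases (right) are plotted for coding-only, stop-codon-spanning and 3′ untranslated-only peaks, 1 line per heart. All 10 lines rise from coding-only to stop-codon-spanning peaks in both panels, and on the left 1 line, db/+ 5, goes on rising to 3′ untranslated-only peaks.

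Overlapping stop-codon-spanning peaks of the 10 hearts joined into 2751 regions, and 2716 genes had such a peak in at least 1 heart. Each region was counted under 1 gene, although 12 regions held peaks of more than 1 gene symbol. On that count 2658 genes had 1 region, 45 had 2, and Dnmt3a, a DNA methyltransferase, had 3. Of the regions, 459 (16.7%) were found in all 10 hearts, 1231 (44.7%) in at least 5, and 762 (27.7%) in 1 heart. By the same joining, 10.3% of coding-only and 7.44% of 3′ untranslated-only regions were found in all 10 hearts, and 42.0% and 43.2% in 1 heart. Members on 1 transcript all cover its stop codon and so are joined, while peaks of the other classes can lie apart. Part of this difference is therefore built into the rule, and no test is given. Counting a peak of any class at the place, 1043 of the 2751 regions (37.9%) were marked in all 10 hearts.

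**Figure D3:**
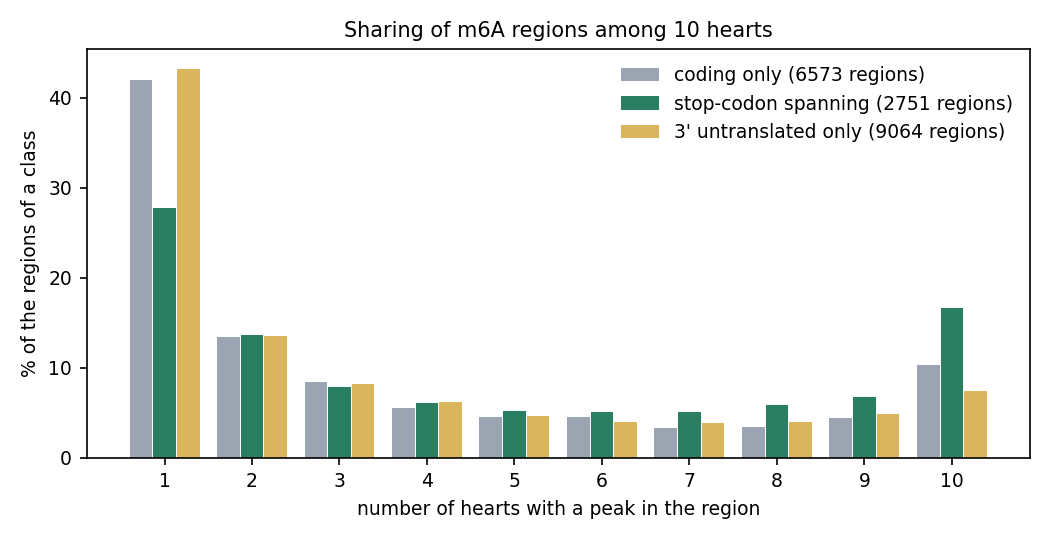
For each class of m6A region, the bars give the percentage of its regions that had a peak in 1 to 10 hearts. Stop-codon-spanning regions have the highest bar at 10 hearts, 16.7%, and the lowest at 1 heart, 27.7%. Part of this difference is built in, since members on 1 transcript all cover its stop codon and are joined.

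Regions shared by more hearts were longer and lay in more abundant transcripts. Median region length was 173.5 exon bases for regions of 1 heart, 299 for 2 to 4 hearts, 490 for 5 to 9 and 657 for all 10. Part of this rise is built in, since a joined region grows with each peak added. The longest peak of a heart within a region, which does not grow in this way, had a median of 151, 203, 300 and 466 bases in the same order. Median FPKM (the fragment count of a gene relative to its length and the library, averaged over the 10 input libraries) of their genes was 5.02, 5.98, 8.96 and 19.1. The fold percentile did not follow the same order, with medians of 63.9, 59.0, 55.5 and 63.7. For a region, here and below, fold and percentile are those of its peak of highest fold in each heart. They are thus not the same measure as the percentiles over all peaks given above.

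The 459 regions marked in all 10 hearts kept a similar order of enrichment from heart to heart. Over the 45 pairs of hearts, Spearman's rho of fold across these regions had a median of 0.685 and ran from 0.539 to 0.781. These are correlations across regions, which share libraries and transcripts and are no replicates, so they are given as a description. The mean rho was 0.673 for pairs of 1 genotype and 0.666 for pairs of different genotype. For 1 region, the highest fold over the 10 hearts was a median of 2.32 times the lowest (quartiles 1.90 and 3.13), and the longest peak a median of 1.79 times the shortest. The ratio of folds also holds differences in scale between lists.

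The sets of regions were no more alike within a genotype than between genotypes. The Jaccard index, the shared part of a pair of region sets, averaged 0.528 within and 0.531 between genotypes (difference -0.00291, exact one-sided permutation test, p = 0.675). Pairs ran from 0.367 to 0.638. Every pair with db/db 5 was at or below 0.467, and every pair without it at or above 0.476. The difference was +0.00164 without db/db 1 and +0.000639 without db/db 2.

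The regions of highest rank among those in all 10 hearts belonged to mt-Nd5, Erp29, Polr3gl, Fabp4, Mrpl40, Arglu1, Asf1a, Ercc5, Atf1 and Hmgn2. Erp29, a chaperone of the endoplasmic reticulum, stood at a median percentile of 95.6 (chr5:121444711-121452230, minus strand). Its folds were 31.8, 6.67, 16.9, 19.8 and 5.98 in db/+ hearts 1 to 5 and 19.6, 11.1, 9.54, 6.97 and 25.2 in db/db hearts 1 to 5. Its transcript was at 4.56 ± 0.562 FPKM in db/+ and 3.72 ± 0.135 in db/db (SD, n = 5 each; limma adjusted p = 0.120). Polr3gl, a subunit of RNA polymerase III, followed at 95.4 (chr3:96577872-96580883, minus strand), with folds of 3.94 to 26.9.

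Fabp4, a fatty acid binding protein of adipocytes and capillary endothelium, stood at 94.5 (chr3:10204237-10206051, minus strand). Its folds were 32.2, 10.9, 15.4, 22.1 and 14.8 in db/+ hearts 1 to 5 and 11.3, 9.22, 5.38, 5.03 and 5.85 in db/db hearts 1 to 5. Folds are not comparable between lists, and no test was made. Its FPKM was 177 ± 24.8 in db/+ and 183 ± 14.5 in db/db (SD, n = 5 each; limma adjusted p = 0.799). Several others of this group act in the nucleus: Arglu1 in splicing, Asf1a as a histone chaperone, Ercc5 as an endonuclease of nucleotide excision repair, Atf1 as a transcription factor and Hmgn2 as a nucleosome-binding protein. Mrpl40 belongs to the mitochondrial ribosome.

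The mitochondrial chromosome held 74 of the 24093 members, in 10 genes. Mitochondrial messenger RNAs carry almost no 3′ untranslated sequence, so here the label goes against what is known of these transcripts, and the peaks are named by their annotation only. The region of mt-Nd5, a subunit of respiratory complex I, covered 1824 bases (chrM:11742-13565, plus strand), with folds of 3.75, 32.7, 10.9, 40.3 and 107 in db/+ hearts 1 to 5 and 5.25, 112, 100, 46.3 and 2.34 in db/db hearts 1 to 5. The fold of 241 was that of mt-Nd4l, another subunit of complex I, in db/db 3. The genes mt-Nd4l, mt-Atp8 and mt-Atp6 overlap their neighbours on the same strand, so their peaks cannot be assigned to 1 gene with certainty.

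Genes with a stop-codon-spanning peak were more highly expressed than genes with peaks elsewhere only. Within db/+ hearts 1 to 5, their median FPKM was 12.3, 13.98, 10.2, 9.996 and 8.56, against 7.57, 7.64, 6.79, 6.74 and 5.81 for genes with peaks of other classes only. Within db/db hearts 1 to 5 it was 10.4, 10.1, 9.62, 9.16 and 16.02, against 6.93, 6.42, 6.21, 6.16 and 9.86. The medians differed in the same direction in 10 of 10 hearts, by 0.58 ± 0.09 on the scale of log2(FPKM + 1) (SD over hearts; exact two-sided sign-flip test, p = 0.00195, the smallest it can give). Genes without any peak had medians of 2.21 to 2.74 FPKM.

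The share of genes with such a peak rose along the range of expression. The 11835 genes matched by 1 symbol were split by mean FPKM into 10 bins of equal size. In the lowest bin, 3.55% had a stop-codon-spanning peak in at least 1 heart. In the fifth bin it was 19.0%, and in the highest 43.9%. The share with a peak in all 10 hearts went from 0.0845% in the lowest bin to 15.2% in the highest. Peaks of any class also rose, from 23.1% to 87.7%. Among genes with any peak, the part with a stop-codon-spanning one went from 15.3% to 50.1%. The number of reads available for calling rises with the transcript level, and its part in these shares was not tested.

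**Figure D4:**
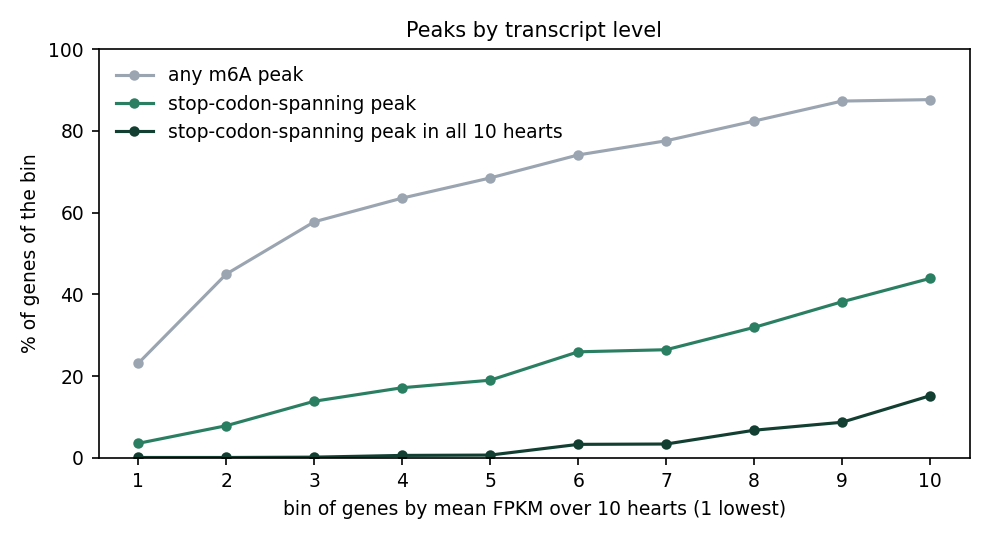
Genes of the expression table are split into 10 bins of equal size by their mean FPKM over the 10 input libraries (x axis), and the lines give the percentage of each bin with any m6A peak, with a stop-codon-spanning peak, and with one in all 10 hearts. All 3 lines run upward, the stop-codon-spanning one from 3.55% to 43.9%.

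Over all genes of the table, 22.8% had a stop-codon-spanning peak in at least 1 heart and 3.90% in all 10. These shares cover all levels of expression, and the share rises with the level. In the highest bin, from 25.7 FPKM up, 43.9% had such a peak in at least 1 heart and 15.2% in all 10. Each list below is therefore also to be read beside the bin of its median FPKM. No list was tested against its bin. The transcripts of the contractile apparatus carried many. Of 28 sarcomere and Z-disc genes, 19 had such a peak and 10 had it in all 10 hearts, at a list median of 290.4 FPKM, which lies in the highest bin. Among them were Myh6, the light chain Myl2 and the troponin subunits Tnni3 and Tnnc1. Of 30 cytosolic ribosomal protein genes, at a median of 126.7 FPKM, 20 had a peak and 12 had it in all 10 hearts, among them Rpl4, Rpl19 and Rps27. Ribosomal protein and Hmgn genes have many processed pseudogenes, and how reads shared with these were counted is not stated, so their values are uncertain.

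Other lists with a median in the highest bin held fewer. Of 28 nuclear genes of the respiratory chain, at a median of 273 FPKM, 11 had a peak, and Cox7c, Ndufv2 and Cox6c had it in all 10 hearts. Of 22 genes of glucose uptake and glycolysis, at a median of 96.0 FPKM, 8 had a peak. Gpi1, the glycolytic phosphoglucose isomerase, had it in all 10 hearts, the muscle mutase Pgam2 in 9 and Hk2, the insulin-regulated hexokinase, in 8. Of 23 genes of fatty acid oxidation, at a median of 163.6 FPKM, 12 had a peak and 6 had it in all 10 hearts. Those included the acyl-CoA dehydrogenases Acadl and Acadvl and both subunits of the electron transfer flavoprotein, Etfa and Etfb.

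Of 28 ion channels and calcium handling proteins, at a median of 17.8 FPKM, 13 had a stop-codon-spanning peak. It was found in all 10 hearts in Casq2, the calcium store protein of the sarcoplasmic reticulum, Ryr2, the calcium release channel, Trdn, its partner triadin, and Kcnj2, an inward rectifier potassium channel. Cardiac transcription factors had it in 10 of 28 and in no case in all 10 hearts, with Hand2 and Foxo3 in 9, Ppara in 8 and Tbx20 in 5. Of 28 chromatin and Polycomb regulators, 10 had it, led by Ep300 and Chd7 in 8 hearts and Smarca4 in 7. The median level was 6.35 FPKM for the transcription factors and 2.83 for the chromatin list. In the bins of these levels, 26.5% and 17.2% of all genes had such a peak.

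The remaining lists gave further single genes. Median FPKM was 5.88 for insulin signalling, 9.84 for the matrix, 91.5 for the fetal program, 4.52 for the clock and 40.7 for PPAR-alpha targets. Insulin signalling had 10 of 22, with Pik3ca, the catalytic subunit of a phosphoinositide kinase, in all 10 hearts, and the receptor adaptor Grb14 in 7. Extracellular matrix genes had 8 of 28, with the laminin chain Lamb1 in all 10 hearts and Lamc1 and Col1a2 in 9. Of the 8 hypertrophy and fetal program genes in the table, 5 had it, with the slow myosin Myh7 and the calcineurin regulator Rcan1 in all 10. Clock genes had 4 of 18 and targets of the fatty acid sensor PPAR-alpha 6 of 18, none in all 10 hearts.

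Some transcripts of the m6A machinery had a stop-codon-spanning peak of their own. Of 11 writer genes, 4 had a stop-codon-spanning peak. Wtap, the adaptor of the writer complex, had it in 8 hearts, 4 of each genotype. Mettl5, which methylates ribosomal RNA, had it in 7, and Cbll1 and Rbm15b, a pair of cofactors, in 1 each. Neither eraser, Fto or Alkbh5, had one in any heart. Of 11 reader genes in the table, 7 had it. Hnrnpa2b1, Hnrnpc and the nuclear reader Ythdc1 had it in all 10 hearts, Ythdf3 in 8, Ythdf2 in 3, Fmr1 in 2 and Elavl1 in 1. None of the writer, eraser or reader genes tested passed the test for a difference in FPKM between genotypes. Ythdc1, for example, was at 2.91 ± 0.303 FPKM in db/+ and 2.91 ± 0.428 in db/db (SD, n = 5 each; limma adjusted p = 0.992).

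Markers of cell types were read the same way. Of the 7 cardiomyocyte markers 4 had a stop-codon-spanning peak in all 10 hearts: Myh6, Tnni3, Tnnt2 and Ryr2. Of 6 endothelial markers, Fabp4 had it in all 10 hearts and 3 others in 3 or 4. Col1a1, Postn and Pdgfra carried it among 6 fibroblast markers, in 6, 5 and 2 hearts. Among 6 macrophage markers C1qa alone did, in 3 hearts. Smooth muscle and pericyte markers had it in 2 of 6 (Myh11 and Tagln), adipocyte markers in 2 of 6 (Adipoq and Cfd) and atrial markers in 2 of 5 (Myl7 and Myl4), while the 6 lymphocyte markers were not in the table. The marked transcripts thus include those of several cell types, and bulk RNA of a heart cannot tell fewer cells of a type from less RNA per cell.

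Few regions met a count rule for a difference between genotypes. A region was counted as gained with a stop-codon-spanning peak in at least 4 db/db hearts and at most 1 db/+ heart, and as lost in the opposite case. Of the 2751 regions, 17 were gained (0.618%) and 25 lost (0.909%). Over the 19082 regions of all classes the same rule counted 0.66% as gained and 1.08% as lost, so stop-codon-spanning regions lay near the background. Fisher's exact test per region, adjusted over all 19082 regions by the method of Benjamini and Hochberg, called 0%, and the smallest p that 5 against 5 hearts allow is 0.00794. After adjustment a region at that floor passes only if very many others reach it too. The 0% therefore does not show that the regions were alike. At an unadjusted p under 0.05 stood 16 of the 2751 stop-codon-spanning regions, 4 of them more frequent in db/db. Over all 19082 regions it was 140 (0.734%), 44 of them more frequent in db/db.

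These counts rested on single hearts. The number gained was 28, 29 and 30 without db/+ 3, 4 and 5, and 3, 3, 4 and 3 without db/db 1, 2, 3 and 4. The number lost was 11, 10, 11, 9 and 8 without db/+ 1, 2, 3, 4 and 5, and 59, 55 and 46 without db/db 1, 2 and 4. With 1 heart fewer in a genotype, the demand for at least 4 of its hearts is harder to meet. The limit of at most 1 of its hearts is easier to keep, so part of these shifts is built in. Counts over regions of all classes with a heart left out are not given here. The shifts therefore cannot be read as particular to stop-codon-spanning regions.

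Most of these regions were marked in the other genotype under another annotation. When a peak of any class at the place was counted, 2 of the 17 gained regions were still gained and 4 of the 25 lost regions still lost. The gained ones were in Spock2 and Ccdc149. The lost ones were in Irx5, Cr1l, Dcun1d5 and Nsmce2. At 10 of the 25 lost places, all 10 hearts had a peak of some class, as they did at 6 of the 17 gained places.

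By the difference in hearts and then by fold, the leading gained regions were in Spock2, Camk2n1, Uqcc3, Hmgn1, Gmeb1 and Kbtbd7. Spock2, an extracellular matrix proteoglycan, had a stop-codon-spanning peak in db/db hearts 1 to 4, with folds of 5.42, 5.70, 5.72 and 4.58, and in no db/+ heart (chr10:60131164-60131850, plus strand). A peak of any class stood there in 1 db/+ heart and the same 4 db/db hearts. Its FPKM was 4.33, 5.05, 4.17, 4.603 and 7.475 in db/+ hearts 1 to 5 and 15.3, 11.3, 8.50, 13.6 and 6.96 in db/db hearts 1 to 5. Heart db/db 5, without the peak, had the shortest peak list of all hearts. It also had the lowest Spock2 level of the db/db hearts, below that of db/+ 5. The part of either in the missing peak was not tested. The log2 difference in FPKM was 0.96 ± 0.20 (SE, limma adjusted p = 0.0274). The call was lost without each of db/+ 1, 2, 3 and 4 and db/db 1, 2 and 4, with an adjusted p of up to 0.102 over all alternatives.

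Camk2n1, an inhibitor of the calcium/calmodulin kinase CaMKII, had a stop-codon-spanning peak in all 5 db/db hearts and in db/+ 3 (chr4:138455298-138457260, plus strand). All 10 hearts had a peak of some class at this place. Its FPKM was 6.90, 8.65, 7.59, 7.60 and 8.35 in db/+ hearts 1 to 5 and 10.47, 10.2, 9.25, 11.1 and 8.71 in db/db hearts 1 to 5. These groups did not overlap, but the share of all genes with such a separation was not counted. The difference of 0.31 ± 0.08 on the log2 scale missed the threshold (limma adjusted p = 0.0606). It passed with 5 of the other settings, among them equal library medians (0.0270) and leaving out db/db 5 (0.0462). Uqcc3, an assembly factor of respiratory complex III, had the same pattern of hearts, 5 against 1, and again a peak of some class in all 10.

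Hmgn1, which binds nucleosomes, had its peak in db/db hearts 1 to 4 only, with folds of 2.28 to 4.72, while 3 db/+ hearts had a peak of another class there. Gmeb1, a DNA-binding modulator of glucocorticoid response, had it in db/db hearts 1 to 4 and db/+ 1, with folds of 6.99 to 24.7. Kbtbd7, an adaptor of a ubiquitin ligase, had it in 4 db/db hearts and db/+ 5, with folds of 6.87 to 16.3. Their transcripts did not pass the test: the log2 differences were -0.02, -0.01 and -0.06 (limma adjusted p = 0.911, 0.939 and 0.775).

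The leading lost regions were in E130311K13Rik, Irx5, Slk, Cd93, Acbd3 and Cr1l. E130311K13Rik was the 1 region marked in all 5 db/+ hearts and no db/db heart, with folds of 6.32, 4.14, 5.72, 6.01 and 16.4 (chr3:63915161-63915548, minus strand). Even there, 4 db/db hearts had a peak of another class. Its FPKM was 4.51, 3.54, 3.01, 4.45 and 3.11 in db/+ hearts 1 to 5 and 2.58, 2.60, 2.67, 2.94 and 2.70 in db/db hearts 1 to 5. The groups did not overlap, and how many of all genes show this was not counted. The log2 difference was -0.34 ± 0.10 (SE, limma adjusted p = 0.0886).

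Irx5, a homeobox factor of the cardiac repolarisation gradient, had its peak in db/+ hearts 1, 2, 3 and 5 and in no db/db heart (chr8:92360799-92361187, plus strand). Its FPKM of 1.54 ± 0.547 in db/+ and 1.57 ± 0.229 in db/db (SD, n = 5 each) differed by less than the spread (limma adjusted p = 0.908). Cr1l, a regulator of complement, had it in all 5 db/+ hearts and in db/db 2 (chr1:195103790-195111145, minus strand), at 5.30 ± 0.521 and 5.76 ± 0.679 FPKM (SD, n = 5 each; limma adjusted p = 0.553). Dcun1d5, a neddylation factor, had it in 4 db/+ hearts, and no db/db heart had a peak of any class there. Its transcript was at 14.1 ± 1.21 FPKM in db/+ and 13.4 ± 0.135 in db/db (SD, n = 5 each; limma adjusted p = 0.564). This region covered 149 exon bases. Counted over the whole gene Dcun1d5, 9 hearts had a peak of some class, db/db hearts among them. Why no db/db heart had a peak listed in the region was not tested.

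Slk, a kinase of the cytoskeleton, had a stop-codon-spanning peak in 4 db/+ hearts and no db/db heart, over a joined length of 3179 exon bases. Cd93, an endothelial surface receptor, had it in all 5 db/+ hearts and db/db 1, and the Golgi protein Acbd3 in 4 db/+ hearts. In all of them at least 4 db/db hearts had a peak of some class at the place. Their log2 differences in FPKM were -0.05, -0.03 and -0.01, and none passed (limma adjusted p = 0.728, 0.902 and 0.963).

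Over all gained regions, the FPKM of 11 of the 17 genes was higher in db/db by sign and 3 passed the test as higher: Acot2, Spock2 and Gypc. Of all 10344 genes tested, 1.29% passed as higher and 1.72% as lower. The median log2 difference was 0.05 for the 17 genes, against -0.03 for all genes tested. Over all lost regions, 9 of 25 genes were higher by sign, 1810013L24Rik passed as lower (-0.39 ± 0.07, SE, limma adjusted p = 0.0186), and the median was -0.02. The call of Gypc, a red cell membrane protein, was lost without db/+ 2, 3 or 4 and db/db 2, 3 or 4. That of 1810013L24Rik was lost without db/+ 3, db/db 1 or db/db 3.

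Acot2, a mitochondrial thioesterase that splits acyl-CoA, had its stop-codon-spanning peak in db/db hearts 2 to 5 and db/+ 5, with a peak of some class in all 10 hearts (chr12:83992983-83993487, plus strand). Its FPKM was 30.7, 35.4, 37.2, 33.3 and 24.7 in db/+ hearts 1 to 5 and 62.6, 64.8, 63.8, 62.5 and 65.3 in db/db hearts 1 to 5. The groups lay far apart. The log2 difference was 0.97 ± 0.09 (SE, limma adjusted p = 0.000486). Acot1 is a near-identical copy, and how reads were split between the pair is not stated, so values of both are uncertain.

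The share of genes that differed between genotypes was near the background among genes with a stop-codon-spanning peak. Of 10344 genes tested with limma on log2(FPKM + 1), 3.01% passed at an adjusted p under 0.05, 1.29% higher and 1.72% lower in db/db. Of the 2632 tested genes with a peak in at least 1 heart, 41 rose and 56 fell (3.69%). Of 1230 with a peak in at least 5 hearts, 21 rose and 22 fell (3.50%). Of 460 with a peak in all 10 hearts, 8 rose and 6 fell (3.04%). The median log2 difference was -0.03, -0.03 and -0.04 for these sets and -0.03 for all tested genes.

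The split between rises and falls depended on the scaling. With library medians set equal, 46 rose and 37 fell, so that the share of rises among the called genes was 55.4% in place of 42.3%, and with quantile normalization it was 52.7%. The counts also rested on single hearts. The rises were 19, 23, 24 and 18 without db/+ 3, db/+ 4, db/db 2 and db/db 3. The falls were 37, 23 and 31 without db/+ 1, 3 and 4, and 18, 32, 22 and 32 without db/db 1, 2, 3 and 4. Without both db/+ 5 and db/db 5, a setting chosen after seeing the data, 55 rose and 59 fell. The shares of all genes called under these settings are not given here. The shifts therefore cannot be read as particular to genes with a stop-codon-spanning peak.

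**Figure D5:**
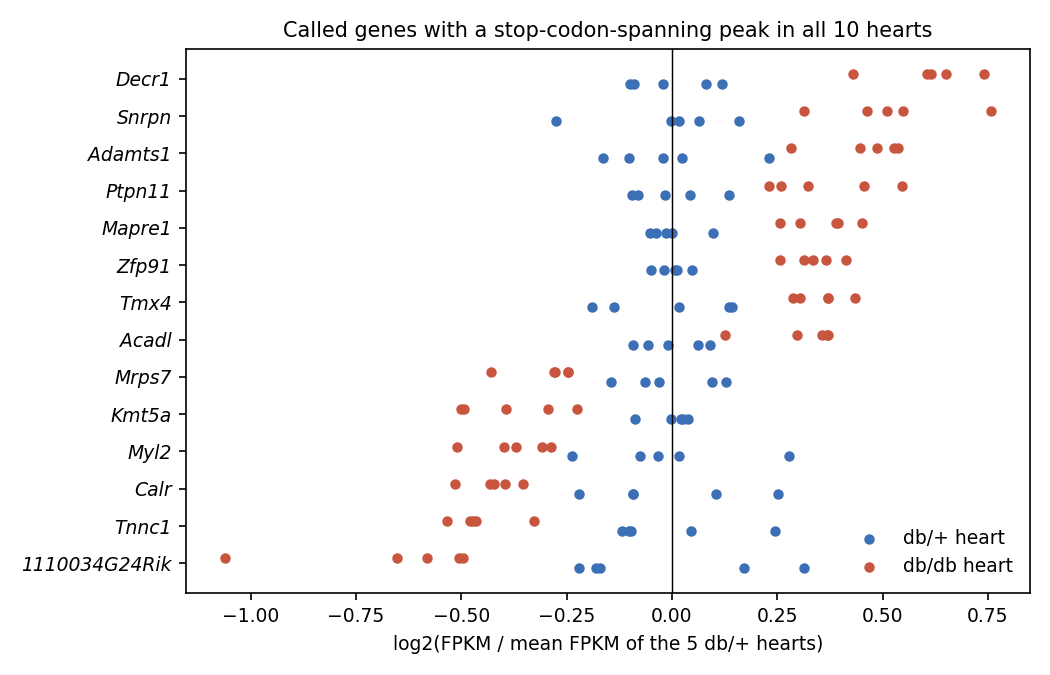
FPKM of the 14 called genes with a stop-codon-spanning peak in all 10 hearts is plotted as log2 of the ratio to the mean of the 5 db/+ hearts, 1 point per heart. In each gene the db/+ and db/db points do not overlap, with 8 genes higher and 6 lower in db/db. The genes were called on these same values, so the separation is no further evidence. Its share over all genes tested was not counted.

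Among the 8 genes marked in all 10 hearts that rose, a pair act in fatty acid oxidation. Decr1, a mitochondrial dienoyl-CoA reductase needed to oxidise unsaturated fatty acids, was at 121.2, 104.8, 118.1, 104.1 and 110.0 FPKM in db/+ hearts 1 to 5 and at 169.7, 170.9, 186.6, 150.4 and 175.1 in db/db hearts 1 to 5. The lowest db/db heart lay above the highest db/+ heart. Such a separation, here and in the called genes below, is no further evidence, since these genes were chosen on the same values. The log2 difference was 0.61 ± 0.07 (SE, limma adjusted p = 0.00184), and the call held in 18 of 18 alternatives. The folds of its region (chr4:15918883-15919916, minus strand) were 2.51 to 3.32 in db/+ hearts and 2.09 to 3.75 in db/db hearts.

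Acadl, the long-chain acyl-CoA dehydrogenase, was at 572.2, 503.7, 560.7, 516.6 and 533.8 FPKM in db/+ hearts 1 to 5 and at 694.9, 660.4, 688.0, 586.0 and 693.0 in db/db hearts 1 to 5. All db/db values lay above the db/+ values. The difference was smaller, 0.30 ± 0.06 on the log2 scale (SE, limma adjusted p = 0.0270). Its call was lost without db/+ 2, 3 or 4 and without db/db 1, 2, 3 or 5, with an adjusted p of up to 0.0748 over all alternatives. Its region (chr1:66830839-66843140, minus strand) had folds of 1.96 to 7.03.

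The other 6 rises had varied roles. Snrpn, a core protein of spliceosomal particles expressed from the paternal allele, rose from 25.6 ± 2.75 to 36.8 ± 4.18 FPKM (SD, n = 5 each; log2 difference 0.51, limma adjusted p = 0.0176). Adamts1, a secreted metalloprotease, rose from 7.31 ± 0.791 to 10.1 ± 0.698 (0.41, limma adjusted p = 0.0191). Ptpn11, the phosphatase SHP2 of growth factor signalling, rose from 34.0 ± 2.25 to 43.8 ± 4.16 (0.36, limma adjusted p = 0.0286). Microtubule ends are bound by the product of Mapre1, which rose from 8.88 ± 0.369 to 11.4 ± 0.611 (0.33, limma adjusted p = 0.0152).

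Zfp91, a zinc finger ubiquitin ligase, rose from 15.98 ± 0.411 to 20.2 ± 0.817 FPKM (SD, n = 5 each; log2 difference 0.32, limma adjusted p = 0.00962). Tmx4, a thioredoxin-related membrane protein, rose from 5.41 ± 0.566 to 6.91 ± 0.285 (0.31, limma adjusted p = 0.0443). Snrpn lost its call without db/db 3, and Adamts1 without db/+ 3 or db/db 3. Ptpn11 lost it without db/+ 2, 3 or 4 and db/db 1, 2 or 3, and Tmx4 without any heart but db/+ 1. Mapre1 and Zfp91 were called with each heart left out. The reading frame of Snrpn shares a transcript with Snurf, so its value cannot be told from that of Snurf. Of the regions of these genes, that of Adamts1 ranked high in the lists, at a median percentile of 89.2 (chr16:85795145-85795834, minus strand).

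The 6 genes that fell included a pair of contractile proteins. Tnnc1, the calcium-binding troponin C of heart and slow muscle, was at 1173, 1063, 1059, 1047 and 1346 FPKM in db/+ hearts 1 to 5 and at 906, 785, 823.5, 819.9 and 815 in db/db hearts 1 to 5. The highest db/db heart lay below the lowest db/+ heart. The log2 difference was -0.45 ± 0.07 (SE, limma adjusted p = 0.0108), called in 18 of 18 alternatives.

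Myl2, the regulatory light chain of the ventricle, was at 1863, 1561, 1797, 1746 and 2232 FPKM in db/+ hearts 1 to 5 and at 1509, 1291, 1396, 1423 and 1486 in db/db hearts 1 to 5. All db/db values lay below the db/+ values. Its log2 difference of -0.36 ± 0.09 (SE, limma adjusted p = 0.0466) was lost with library medians set equal and without any heart but db/+ 2 or 5. The summed FPKM of 7 cardiomyocyte markers was 7350 to 8914 in db/+ and 6593 to 7616 in db/db, none of them at 0. The part of this shift in the falls of contractile genes was not tested.

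Calr, the calcium-binding chaperone calreticulin, fell from 110.5 ± 14.6 to 82.4 ± 3.36 FPKM (SD, n = 5 each; log2 difference -0.41, limma adjusted p = 0.0270). Kmt5a, a histone methyltransferase, fell from 26.2 ± 0.905 to 20.1 ± 1.71 (-0.36, limma adjusted p = 0.0155). Mrps7, a protein of the mitochondrial ribosome, fell from 29.6 ± 2.32 to 24.2 ± 1.24 (-0.28, limma adjusted p = 0.0466). The gene 1110034G24Rik fell from 15.3 ± 2.67 to 9.79 ± 1.44 (-0.59, limma adjusted p = 0.0298). The fall of Kmt5a was called with each heart left out. That of Mrps7 was lost without any heart but db/+ 2 and under both other scalings, that of Calr without db/+ 2 or 3 or any db/db heart, and that of 1110034G24Rik without db/+ 1, 2 or 3 or db/db 1, 2, 3 or 4.

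Among the lists, called rises of genes with a stop-codon-spanning peak were counted in those of fatty acid oxidation and PPAR-alpha targets, with no test of the difference from other lists. Over all genes tested, 1.29% rose. Of the 12 fatty acid oxidation genes with such a peak, 6 rose and none fell: Decr1 and Acadl, marked in all 10 hearts, and Ech1 in 6, Cd36 in 2 and Eci2 and Etfdh in 1 each. Of 6 PPAR-alpha targets with a peak, 5 rose: Acot1, Acot2, Plin5, Cd36 and Ech1. Over the whole lists, 9 of 23 and 9 of 18 rose, with Ech1, Cd36, Slc25a20 and Fabp3 counted in both. These lists and their direction were known from earlier results of the same data, so the counts are no independent evidence. The 6 of 12 became 3 without each of db/+ 2, 3 and 4 and db/db 1, 2 and 5, and 2 without db/db 3, where Eci2 and Etfdh among others missed the threshold. None of the 12 passed as lower in any setting. The 5 of 6 became 4 without db/db 3.

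Plin5, a lipid droplet protein of oxidative tissue, was at 45.0 ± 3.91 FPKM in db/+ and 73.1 ± 6.76 in db/db (SD, n = 5 each; log2 difference 0.69, limma adjusted p = 0.00184). Its stop-codon-spanning peak was found in 2 db/+ and 3 db/db hearts. Ech1, a dienoyl-CoA isomerase of mitochondria and peroxisomes, was at 426.6 ± 41.9 and 593.1 ± 28.3 FPKM (SD, n = 5 each; 0.48, limma adjusted p = 0.00599), with the peak in 4 db/+ and 2 db/db hearts at folds of 1.19 to 1.50. Cd36, the fatty acid transporter, was at 374.1 ± 40.2 and 510.6 ± 35.4 FPKM (SD, n = 5 each; 0.45, limma adjusted p = 0.0164), with the peak in 2 db/+ hearts and no db/db heart. A higher transcript level in db/db thus went with more, fewer or equal numbers of marked hearts in these 3 genes and Decr1.

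In the contractile list 3 of the 19 genes with a stop-codon-spanning peak fell and none rose: Myl2 and Tnnc1, marked in all 10 hearts, and the light chain Myl3, marked in 2. Over all genes tested, 1.72% fell. The number was 1 with library medians set equal or without db/db 3, and 2 without each of the other hearts but db/+ 2 and 5. With both hearts numbered 5 left out, 1 rose and 3 fell. Myh6 itself was at 2212 ± 287 FPKM in db/+ and 1780 ± 131 in db/db (SD, n = 5 each), which missed the threshold (log2 difference -0.31, limma adjusted p = 0.0871). Among genes with such a peak, 1 gene fell in each of the lists of glycolysis, respiratory chain and adipocyte markers: Eno3, Cox7a1 and Cfd. The call of Cox7a1 was lost with library medians set equal and without db/+ 3 or 4 or db/db 1, 2 or 3. Cfd, the adipocyte protease adipsin, had its peak in db/+ 4 only. Its FPKM was 15, 11.3, 78.5, 46.2 and 110 in db/+ hearts 1 to 5 and 3.33, 7.64, 1.68, 13.1 and 1.58 in db/db hearts 1 to 5. The groups overlapped, and its call (limma adjusted p = 0.0411) was lost without each heart but db/+ 1, db/+ 2 and db/db 4. The summed FPKM of 6 adipocyte markers was 15.9 to 175 in db/+ and 5.96 to 50.9 in db/db. In the lists of the m6A machinery, transcription factors, chromatin, clock, ribosome, matrix, insulin signalling, ion channels and the fetal program, no gene with a stop-codon-spanning peak passed in either direction.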

How the data were processed

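Input and anti-m6A libraries of 10 hearts were used as deposited by the authors: FPKM of 11856 genes from the input libraries, and 10 peak lists called per heart with a fold enrichment (ratio), a p-value and exon blocks for each peak, per the file headers. Genome build mm9, HISAT2 2.1.0, Trimmomatic 0.32 and FastQC 0.11.7 come from the submitters' processing notes. No source used here names the peak caller. Without counts the depth is unknown. Per the labels' protocols, libraries were made from poly(A) RNA with a stranded kit. Genotypes were taken from titles, although the genotype field calls db/+ wild type. Nothing says beyond the titles that the hearts came from separate animals, and p-values measure the spread between these samples.

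Of 146953 lines, 5117 that repeated a position in a list were dropped, with the first line kept. Regions were joined from exon blocks overlapping by at least 1 base on 1 strand. Within a list, folds were turned to percentiles. Genotypes were compared by exact permutation tests and regions by Fisher's exact test (scipy 1.17.1). FPKM was tested with limma 3.58.1 in R 4.3.3, with a trend, on log2(FPKM + 1), which understates changes of low genes, for a mean of at least 1 FPKM. The limma step and the joining were tested on simulated data.

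Members, gene lists and tests were chosen with earlier results of these data known. Named were, by rule, up to 10 regions of highest fold percentile and up to 10 rises and 10 falls among called genes (all marked in all 10 hearts), up to 6 gained and 6 lost regions, the m6A machinery, up to 4 members of each list, the shortest and longest peak and the gene with most regions. Ccdc149, Dcun1d5, Nsmce2, Gypc, 1810013L24Rik, the mitochondrial genes other than mt-Nd5, and the called list members Acot1, Eci2, Etfdh, Slc25a20, Fabp3, Myl3, Eno3 and Cox7a1 were named after their values were seen. A few list members chosen by this rule are not reported here. Alternatives covered duplicates, overlap, thresholds, pseudocounts, filters, scaling, single hearts and a replicate block.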

Additional observations from a re-analysis of the deposited data

Results flagged for a closer look

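Chance marks about 1 in 20 groups by the gap test used here, and 5 of 68 groups of 5 hearts were marked. The number of all peaks in db/+ 5, 20021, lay far above the other db/+ hearts, and that in db/db 5, 8462, far below the other db/db hearts. The median fold of stop-codon-spanning peaks in db/db 5, 2.81, lay far below the other db/db hearts. The FPKM of Mrps7 in db/db 2, 21.99, was low for its group, and that of Spock2 in db/+ 5, 7.475, was high for its group.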

How the results depend on the processing

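In db/db minus db/+, leaving out 1 heart at a time moved the peak count between -337.7 and 52.8, the share between -0.786 and 0.292 percentage points, the genes between -171.5 and 36.5, and the median length between -21.9 and -4.05 bases. The rank difference ran from 6.46 to 8.15 points against coding-only and from 5.48 to 7.07 against 3′ untranslated-only peaks. Gained regions ran from 3 to 30, lost ones from 8 to 59 and the Jaccard difference from -0.00911 to 0.00164. The FPKM difference within a heart ran from 0.55 to 0.59 in log2(FPKM + 1), rises from 18 to 40 and falls from 18 to 59. Matching ranges over all regions and all genes are not given here. With the hearts numbered 5 left out, a setting added after the data were seen, the count differed by 158.8 peaks and 93.5 genes, the Jaccard difference was 0.00344 and 11 regions were lost. Counting overlapping peaks of a heart as 1 turned the share difference to 0.298 points. With 1 peak per gene and class the ranks differed by -1.44 and 2.20 points. Asking for 5 hearts against 0 left 0 gained and 1 lost region. With the best 8462 peaks of each list the Jaccard difference was 0.00467. Library medians set equal gave 37 falls. Genes marked in at least 5 hearts gave 21 rises and 22 falls, and in all 10 hearts 8 and 6. The replicate numbers do not pair the samples: correlations of deviations ran from -0.105 to 0.0283 over the 5 numbers. A fit with the replicate number as a block gave 10 rises and 11 falls. The cause of these shifts was not tested. Of the remaining comparisons of these results, 142 kept direction and side of the threshold or, for counts, stayed near the main value. For FPKM changes of single named genes, 93 comparisons lost a call, 10 gained one and 893 did neither. Peak depth limits every count: a peak not listed in a heart was not detected there, which does not show that the mark was absent.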
